A study of Homo sapiens with 22 samples.

Results

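The step from day 14 to day 16 of culture was examined in haematopoietic progenitor cells with MYC switched on by doxycycline (DOX). The rule took the 2 libraries of DOX day 16 and the 2 of DOX day 14 and compared them across all genes, so 4 of the 22 libraries of the series are its members, and 20115 of the 60240 genes in the table passed the filter on low counts and were tested. PolyA RNA came from progenitors made from the established line H1, which are human embryonic stem cells. The design text describes the DOX cells as carrying ectopic MYC, a transcription factor that drives cell growth, and the UT cells as controls without it, sampled on the same days with 2 libraries each. All titles share 1 line name, doxee17, and all libraries carry the same batch label, while no group analysed here received doxycycline without ectopic MYC. An effect of doxycycline itself and an effect of MYC cannot be told apart. The labels do not say whether the 2 replicates of a group were separate cultures, so p-values reflect the spread between libraries alone, and that spread may be technical.

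As background, granulocyte precursors pack granules in order. Primary granules with myeloperoxidase, azurocidin and elastase come first, eosinophils make major basic protein and eosinophil peroxidase under C/EBP and GATA factors, and lactoferrin marks later neutrophil granules. When oxygen is plentiful, prolyl hydroxylases mark hypoxia-inducible factor for destruction, and when it is scarce the factor switches on glucose uptake, glycolysis and its own hydroxylases. MYC drives ribosome production, nucleotide synthesis and entry into the cell cycle, and also glycolysis.

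Count totals were 35259754 to 47518889 in the 4 libraries and 24730502 to 53508548 over the series. The share of counts from mitochondrially encoded genes was 9.02% and 13.2% on DOX day 14 and 21.0% and 19.5% on DOX day 16, against 17.5% and 9.95% on UT day 14 and 55.9% and 53.5% on UT day 16. An exact permutation test of 2 against 2 cannot go below p = 0.333, so these shares are given without a call. Blood markers were present, with SPN at 543 to 706 CPM (counts divided by TMM-scaled library size) over the 4 libraries. Others were lower on day 16. PTPRC went from 42.9 and 37.0 to 27.8 and 20.2 CPM, and CD34 from 40.4 and 36.2 to 16.6 and 12.3 CPM. KIT went from 69.2 and 78.6 to 44.3 and 50.6 CPM, and RUNX1 from 140 and 154 to 109 and 97.1 CPM. MYB overlapped between the days, at 64.3 and 55.2 CPM and then 61.5 and 50.8 CPM. The lymphoid marker CD3E, the endothelial marker CLDN5, the stromal marker DCN and the pluripotency markers POU5F1, NANOG and SOX2 were each at or under 0.27 CPM in all 4. Other markers of such cells were higher, with the B cell marker CD79A at up to 0.897 CPM, endothelial CDH5 at 1.13 to 1.56 and KDR at 28.4 to 109, stromal COL1A1 at 0.544 to 4.12 and PDGFRA at 1.0 to 1.41, and the monocyte receptor CSF1R at 32.2 to 69.0. In bulk RNA, fewer cells of a type and less RNA per cell cannot be told apart. The second UT day 16 library stood apart, with the stromal collagen COL1A1 at 131 CPM against 1.77 in its replicate, and UT results are given with and without it where they rest on it.

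MYC (ENSG00000136997.21, chromosome 8, 127735434 to 127741434, plus strand, GRCh38) was at 164 and 183 CPM in the day 14 libraries and 133 and 84.4 CPM on day 16. Both day 16 values lay under both day 14 values, but the spread on day 16 was wide. The log2 fold change was -0.68 (SE 0.24, edgeR adjusted p = 0.073), which missed the threshold of 0.05. The call depends on the settings. Among others, it passed with DESeq2 (adjusted p = 0.0379), with limma-voom (adjusted p = 0.0187) and without the first day 16 library (log2 -1.05, edgeR adjusted p = 0.0404). In UT the change was -0.46 (edgeR adjusted p = 0.17), and the steps of the arms differed by -0.22 (SE 0.34, edgeR adjusted p = 0.79). The table has a single MYC row, so ectopic and endogenous transcripts were not separated. Of 30 growth genes known as MYC targets, 1 rose (3.33%) and 2 fell (6.67%) between the days, against 5.53% and 8.13% of all genes. With the transcript-length trend described below removed, 1 rose and 3 fell. The median log2 fold change was 0.05 against 0.00 over all genes, and -0.12 when libraries were scaled by their size alone. DESeq2 called 7 higher and 3 lower and limma-voom 6 and 4. CCND2, the cyclin D2 gene, rose from 87.9 and 83.6 to 139 and 135 CPM, and APEX1, a DNA repair nuclease, fell from 212 and 202 to 141 and 147 CPM. These calls were lost without the second day 14 library for CCND2 (log2 0.63 against 0.67) and without the first day 16 library for APEX1 (-0.51 against -0.53).

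Over all genes, 1113 were higher on day 16 than on day 14 (5.53% of those tested) and 1636 were lower (8.13%), or 13.7% in either direction. At least 2-fold changes made up 242 of the higher (1.20% of genes tested) and 297 of the lower genes (1.48%). In UT over the same days 2787 rose (13.9%) and 3132 fell (15.6%). The DOX step before, from day 12 to 14, had 675 higher (3.36%) and 575 lower genes (2.86%), or 6.21%. The step after, from day 16 to 18, had 1860 (9.25%) and 2199 (10.9%), or 20.2%. Both share 2 libraries with the step described here. Leaving out a library lowered the counts by more than 1.5 times in most cases. Without the second day 14 library 158 rose and 361 fell, without the second day 16 library 337 and 558, without the first day 16 library 489 and 658, and without the first day 14 library 582 and 1107.

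The change moved with transcript length. Of 5 equal groups of genes by length, the one with the shortest transcripts (75 to 1420 bases) is described first. Its median log2 fold change was 0.40, with 318 genes higher and 24 lower. In the longest group (5328 to 205000 bases) it was -0.32, with 85 higher and 858 lower. Across 19782 genes with a length, Spearman's rho between length and change was -0.384 in DOX and -0.034 in UT, a description over genes that share the same libraries. The second minus the first day 14 library had a rho of 0.208 with length. A fit with each library's length trend removed, added after seeing the data, called 851 genes higher and 666 lower, and 1185 of the 2749 calls were shared with the same sign (580 higher, 605 lower). Counts after that removal are given beside those as fitted for the gene groups described below. Calls over all genes fell with the trend removed and without each library, so list counts under these changes stand beside that loss. The lists and their members were chosen with earlier results of these data known, so their counts and medians are descriptions.

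**Figure D1:**
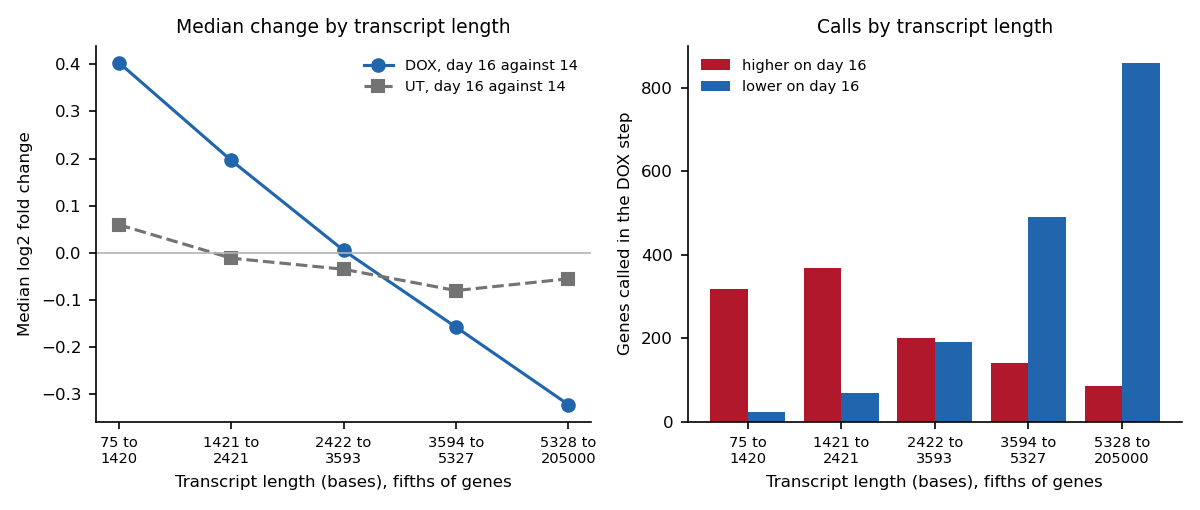
Left, median log2 fold change of day 16 against day 14 (y axis) for 5 equal groups of genes by transcript length in bases (x axis), in DOX (circles) and UT (squares). Right, genes called higher or lower in the DOX step in the same groups: the DOX median falls from 0.40 to -0.32 and calls turn from 318 higher and 24 lower to 85 higher and 858 lower.

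Granule protein genes of eosinophils rose. Of 16 eosinophil genes, 8 were called higher and none lower in edgeR's test, with log2 fold changes of 0.87 to 2.01 and a list median of 0.89 against 0.00 over all genes. At an unadjusted p under 0.05, 10 were higher and 1 was lower, and DESeq2 and limma-voom called 9 and 8 higher. With the length trend removed 7 stayed higher (median 0.80), and without any 1 of the 4 libraries 7 or 8 were called. The other 8 members ranged from -0.73 to 0.91 and were not called. CCR3, the eotaxin receptor of mature eosinophils, was among them, at 0.177 and 0.256 CPM and then 0.164 and 0.107 CPM. The summed level of the list was 2227 and 1620 CPM on day 14 and 5473 and 5532 CPM on day 16.

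PRG2, the major basic protein of the eosinophil granule, was at 1192 and 835 CPM on day 14 and 3150.5 and 3416 CPM on day 16. The groups did not overlap, and the rise was 3.24-fold (log2 1.70, SE 0.20, edgeR adjusted p = 9.04e-05). Its homolog PRG3 rose from 110.4 and 77.1 to 264 and 289 CPM (log2 1.56, SE 0.19, edgeR adjusted p = 0.000151). RNASE2, the eosinophil-derived neurotoxin, went from 37.5 and 29.3 to 154 and 115 CPM, the largest change on the list (log2 2.01, SE 0.28, edgeR adjusted p = 0.000306). RNASE3, the eosinophil cationic protein and a close relative of RNASE2, rose from 3.37 and 3.0 to 9.35 and 8.26 CPM (log2 1.47). In each of these 4 genes both day 16 libraries were above both day 14 libraries. EPX, the eosinophil peroxidase, rose from 435 and 326 to 1037 and 842 CPM (log2 1.30, SE 0.23, edgeR adjusted p = 0.0013). CLC, the galectin that forms Charcot-Leyden crystals, rose from 311 and 222 to 709 and 713 CPM (log2 1.42, SE 0.18, edgeR adjusted p = 0.000199). Both were eosinophil markers of the cell type check, and neither group overlapped the other. IL5RA, the interleukin 5 receptor chain of eosinophil precursors, went from 8.74 and 5.3 to 17.6 and 15 CPM (log2 1.21, edgeR adjusted p = 0.000453). CEBPE, a C/EBP factor of granule formation, was 8.82 and 7.31 CPM on day 14 and 16.2 and 13.4 CPM on day 16 (log2 0.87, edgeR adjusted p = 0.013). Its call was lost with the length trend removed (log2 0.66, edgeR adjusted p = 0.068), without the second day 14 library (log2 0.74) and without the first day 16 library (0.72).

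On the neighbouring days these genes stood at different levels. Of the 16 list genes, 10 rose and 1 fell in the DOX step before (median 2.03), against 3.36% and 2.86% of all genes. In the step after 8 rose and 0 fell (median 0.78), against 9.25% and 10.9% of all genes. Both steps share libraries with this one. PRG2 was at 184 and 154 CPM on day 12 and 5260.1 and 6631 CPM on day 18, the latter above both day 16 values. CLC was at 48.9 and 36.2 CPM on day 12 and 668 and 603 CPM on day 18, all below both day 16 values. RNASE3 was at 0.733 and 0.566 CPM on day 12 and 7.79 and 10.4 CPM on day 18, the latter on both sides of the day 16 values. In UT, PRG2 was already at 5661 and 6418 CPM on day 14 and at 12726 and 11730.0 CPM on day 16. There 10 of the 16 genes rose and 1 fell between the days (median 0.94), against 13.9% and 15.6% of all genes. Scaled by library size alone, 1 rose and 5 fell in UT (median -0.17) while 7 rose and 1 fell in DOX (median 0.73), so the UT direction depends on the scaling. The step of PRG2 differed between the arms by log2 0.68 (SE 0.27, edgeR adjusted p = 0.13), which was not a call. CLC was at 1601 and 1575 CPM and then 1683 and 1323 CPM in UT, with no call, and its step was higher in DOX by log2 1.5 (SE 0.26, edgeR adjusted p = 0.0017).

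Promoter sequence is shown for RNASE2 and PRG3, genes of the eosinophil list among the 12 with the largest rise and with a promoter in the RefSeq table (GRCh38.p14). Promoters of the other highest genes are not shown. Both shown hold the motif below, which not all eosinophil promoters do. The 250 bases before the start lie at chr14:20955237-20955486 on the plus strand for RNASE2 and chr11:57381151-57381400 on the minus strand for PRG3, each written 5′ to 3′ on the gene's strand. Capitals mark TTNNGNAA, a form of the C/EBP motif, searched on both strands.
RNASE2: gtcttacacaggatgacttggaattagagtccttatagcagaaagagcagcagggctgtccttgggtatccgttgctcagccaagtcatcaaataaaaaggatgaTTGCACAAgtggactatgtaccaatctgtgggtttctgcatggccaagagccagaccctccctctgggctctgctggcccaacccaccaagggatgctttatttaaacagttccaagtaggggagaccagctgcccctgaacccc
PRG3: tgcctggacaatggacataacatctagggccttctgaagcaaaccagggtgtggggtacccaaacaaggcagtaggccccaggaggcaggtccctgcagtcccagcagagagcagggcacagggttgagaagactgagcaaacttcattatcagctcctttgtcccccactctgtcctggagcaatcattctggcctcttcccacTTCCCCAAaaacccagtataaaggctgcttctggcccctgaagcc
Each holds 1 match, as the reverse complement of the letters. The letters were found in 7 of the 12 eosinophil genes with an entry (58.3%), in 24.5% of 12463 promoters of tested genes and in 33.6% of all 27305 promoters of the same length. They were also in 13 of 25 ribosomal protein promoters (52%). GAGGAAGT, a PU.1 motif, was in 0 of the 12 and 2.36% of promoters of tested genes, and AGATAA, a motif of GATA1 and its relatives, in 1 of the 12 and 5.38%. A match in these letters is a description and not a binding site.

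Primary granule genes of neutrophils rose too. Of 20 on the list, 13 were called higher (65.0%) and 1 lower (5.00%), against 5.53% and 8.13% of all genes, with a median of 0.98. The list shares CEBPE, RNASE2 and RNASE3 with the eosinophil list, and of the other 17 genes 10 rose. With the length trend removed 11 were higher (median 0.76), and the count was 6 without the second day 14 library and 9 to 13 without 1 of the other libraries. In the DOX step before, 15 rose and 0 fell (median 1.85), against 3.36% and 2.86% of all genes. In the step after 3 rose and 1 fell (median 0.49), against 9.25% and 10.9%. Both share libraries with this step. In UT from day 14 to 16, 9 rose and 1 fell (median 0.44), against 13.9% and 15.6% of all genes. Scaled by library size alone, 0 rose and 10 fell in UT (median -0.68), against 11 and 1 in DOX. The 1 lower member was CALR, a chaperone of the endoplasmic reticulum, and one of the higher members, NKG7, is better known from cytotoxic lymphocytes.

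AZU1, azurocidin, rose from 50.9 and 41.4 to 125 and 112 CPM with no overlap (log2 1.36, SE 0.18, edgeR adjusted p = 0.000226). DEFA4, a defensin, rose from 3.11 and 2.06 to 9.68 and 8.24 CPM (log2 1.79, SE 0.29, edgeR adjusted p = 0.000696). DEFA3 rose from 3.56 and 1.95 to 15.7 and 14.7 CPM (log2 2.47, edgeR adjusted p = 5.73e-05). Its reads cannot be assigned with certainty, because DEFA1 and DEFA1B are near-identical copies and their rows switched between 0 and up to 18.9 CPM within the step. ELANE, neutrophil elastase, was at 1.46 and 0.738 CPM and then 3.79 and 3.08 CPM (log2 1.64, edgeR adjusted p = 0.013). The ELANE call was lost without the second day 14 library (log2 1.23) or the first day 16 library (1.48). MPO, myeloperoxidase, the most abundant member, was at 1228 and 1019 CPM on day 14 and 1066 and 967 CPM on day 16 (log2 -0.15, SE 0.16, edgeR adjusted p = 0.63). The MPO libraries of the days overlapped.

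Of 25 later neutrophil genes tested, 5 rose (20.0%, against 5.53% of all genes) and none fell. The number was 4 with the length trend removed, 2 without either second library and 3 without the first day 16 library. The list median was 0.52, or 0.43 with the 2 members at 0 counts on day 14 set to a floor of 3 counts per library. S100A8, a calprotectin subunit, rose from 21.7 and 13.7 to 46.9 and 44 CPM (log2 1.36, edgeR adjusted p = 0.000667). LTF, lactoferrin, was at 0.0736 and 0.0284 CPM and then 0.287 and 0.448 CPM, few reads in every library, and its call was lost without either second library (log2 2.27 and 2.43 against 2.79). Of 19 mast cell and basophil genes tested, 3 rose (15.8%) and 1 fell (5.26%), and 3 rose with the length trend removed. HPGDS, the haematopoietic prostaglandin D synthase, rose from 3.84 and 2.9 to 10.9 and 8.37 CPM (log2 1.52, edgeR adjusted p = 0.000322). HDC, the histamine-forming decarboxylase, rose from 29.7 and 26.3 to 83.3 and 51.6 CPM (log2 1.27, edgeR adjusted p = 0.0019). TPSB2, a tryptase with near-identical copies, rose from 0.162 and 0.142 to 1.97 and 1.52 CPM. All 3 had day 16 values above both day 14 values. MS4A2, a chain of the high-affinity IgE receptor, was at 0.221 and 0.0852 CPM and then 0.287 and 0.598 CPM (edgeR adjusted p = 0.071). ALOX5AP, the protein that presents arachidonate to 5-lipoxygenase, rose from 10.9 and 7.85 to 30.1 and 24.6 CPM (log2 1.54, SE 0.26, edgeR adjusted p = 0.0012).

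**Figure D2:**
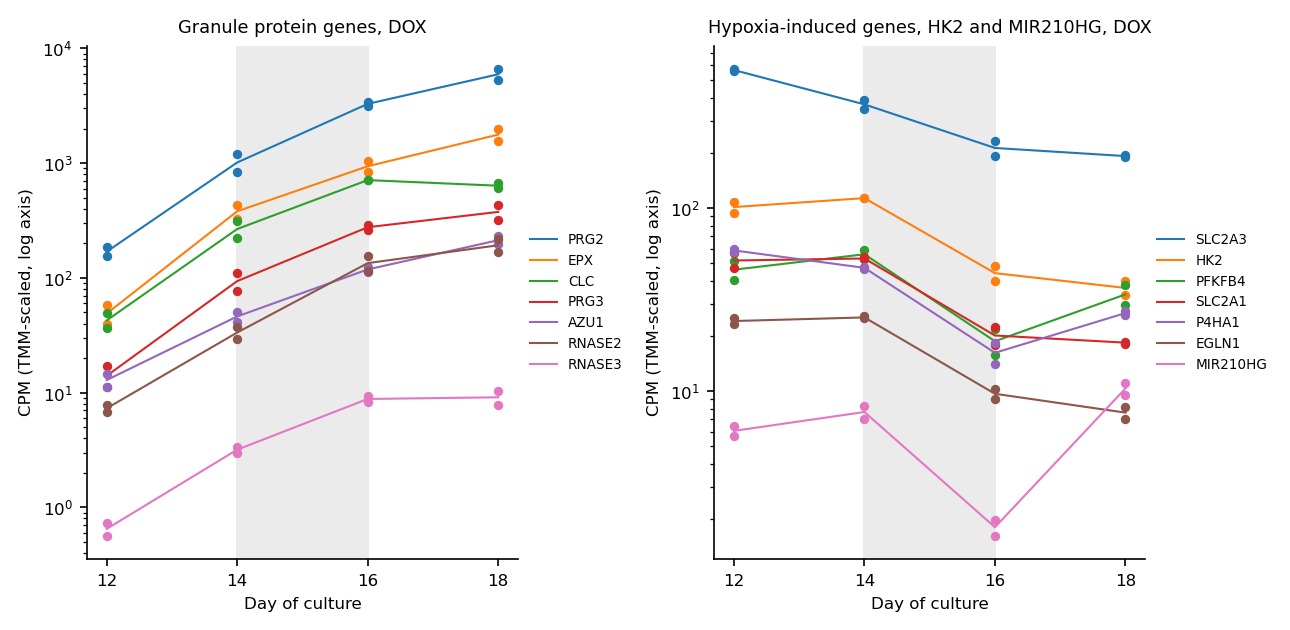
CPM on a log axis (y) by day of culture (x) in DOX for granule protein genes (left) and for hypoxia-induced genes with HK2 and MIR210HG (right), where points are libraries, lines join group means and grey marks the step. All 7 granule genes are higher on day 16 than on day 14, all 7 genes on the right are lower, and MIR210HG is at 9.54 and 11.1 CPM again on day 18.

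Many hypoxia-induced genes fell. Of 26 on the list, 13 were called lower and none higher in edgeR's test, with log2 fold changes of -0.53 to -1.58 and a median of -0.80. At an unadjusted p under 0.05, 17 were lower and 0 higher, and DESeq2 and limma-voom called 15 and 18 lower. With the length trend removed 14 were lower and 1 higher (median -0.71), and 9 or 10 were lower without any 1 of the 4 libraries. Of the 13 not called, 10 had a negative and 3 a positive change. In UT 18 of the 26 fell, where 15.6% of all genes did. The UT median of the list was -1.27 (-1.38 without the second UT day 16 library). The step differed between the arms in 6 genes, all higher in DOX, and in 2 without the second DOX day 14 or the second UT day 14 library, 3 without the first DOX day 14 or second DOX day 16 library, and 4 without the second UT day 16 library. Without the first UT day 16 library 3 were higher and 2 lower.

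SLC2A1, the glucose transporter GLUT1, was at 53.6 and 52.3 CPM on day 14 and 17.9 and 22.3 CPM on day 16. The drop was 2.63-fold (log2 -1.40, SE 0.15, edgeR adjusted p = 4.13e-05). SLC2A3, the glucose transporter GLUT3, fell from 348 and 388 to 192 and 233 CPM (log2 -0.79, SE 0.13, edgeR adjusted p = 0.000694). In UT it fell further, from 385 and 426 to 96.8 and 90.8 CPM, a difference between the steps of 1.32 (SE 0.18, edgeR adjusted p = 0.00046). PFKFB4, which sets the level of fructose 2,6-bisphosphate, fell from 58.8 and 52.9 to 21.7 and 15.7 CPM (log2 -1.58, SE 0.21, edgeR adjusted p = 0.000226). P4HA1, a collagen prolyl hydroxylase, fell from 47.8 and 46.3 to 14 and 18.3 CPM (log2 -1.54, SE 0.21, edgeR adjusted p = 0.000253). EGLN1, the oxygen-sensing prolyl hydroxylase PHD2, fell from 24.9 and 25.5 to 9.0 and 10.3 CPM (log2 -1.39, SE 0.24, edgeR adjusted p = 0.0012). In all 5 genes both day 16 libraries lay under both day 14 libraries.

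MIR210HG, the host transcript of the microRNA miR-210, a hypoxia-induced microRNA, was among the 12 genes with the largest drop of the step. It was at 8.3 and 7.06 CPM on day 14 and 1.62 and 1.99 CPM on day 16 (log2 -2.09, SE 0.26, edgeR adjusted p = 0.000154). The microRNA itself was not measured, since polyA RNA was sequenced. Its mature sequence is shown because the fall of its host is the only view of it here, with the seed (bases 2 to 8) in capitals, from RefSeq at chr11:568112-568133 on the minus strand of GRCh38.p14.
hsa-miR-210-3p: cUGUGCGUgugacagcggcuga
The fall did not last for all of these genes. MIR210HG was at 9.54 and 11.1 CPM on day 18, PFKFB4 at 38 and 29.4 CPM and P4HA1 at 27.2 and 26.1 CPM, each above both day 16 values, and all 3 were called higher on day 18 than on day 16, a comparison that shares the day 16 libraries (edgeR adjusted p = 1.18e-05, 0.0082 and 0.021). SLC2A1 was at 18.2 and 18.6 CPM and EGLN1 at 8.22 and 7.02 CPM on day 18, near or under the day 16 values.

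Promoters of MIR210HG and of 3 genes of the list are shown with ACGTG, the core of the hypoxia response element, in capitals. This motif and these 3 genes were chosen after their values were seen. The windows are the 250 bases before the start in RefSeq (GRCh38.p14), all on the minus strand, at chr11:568458-568707, chr10:73096867-73097116, chr1:231422288-231422537 and chr1:42958869-42959118, each written 5′ to 3′ on the gene's strand.
MIR210HG: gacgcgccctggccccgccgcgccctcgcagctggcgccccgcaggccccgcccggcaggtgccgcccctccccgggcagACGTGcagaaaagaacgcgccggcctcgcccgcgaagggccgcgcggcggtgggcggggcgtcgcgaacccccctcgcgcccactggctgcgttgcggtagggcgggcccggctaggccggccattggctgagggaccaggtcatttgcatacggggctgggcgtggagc
P4HA1: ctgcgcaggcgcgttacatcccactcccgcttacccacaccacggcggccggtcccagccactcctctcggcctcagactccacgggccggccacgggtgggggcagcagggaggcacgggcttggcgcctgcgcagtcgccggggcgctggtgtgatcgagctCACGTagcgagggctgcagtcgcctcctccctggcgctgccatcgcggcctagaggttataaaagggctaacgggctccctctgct
EGLN1: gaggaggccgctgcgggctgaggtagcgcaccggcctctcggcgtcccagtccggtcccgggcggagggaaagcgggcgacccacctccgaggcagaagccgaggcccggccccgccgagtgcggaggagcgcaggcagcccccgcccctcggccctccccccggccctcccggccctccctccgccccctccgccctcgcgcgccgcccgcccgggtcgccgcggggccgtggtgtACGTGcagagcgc
SLC2A1: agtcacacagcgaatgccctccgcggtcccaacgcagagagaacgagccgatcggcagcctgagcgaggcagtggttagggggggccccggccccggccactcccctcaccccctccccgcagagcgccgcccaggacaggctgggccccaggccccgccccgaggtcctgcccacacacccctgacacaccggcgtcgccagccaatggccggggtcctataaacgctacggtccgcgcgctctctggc
On both strands, ACGTG was found once each in MIR210HG, P4HA1 (as its reverse complement) and EGLN1 and not in this window of SLC2A1. It was in 11 of the 21 list genes with an entry (52.4%), in 22.4% of promoters of tested genes and in 18.7% of all promoters. ACGTG was also in 8 of 25 ribosomal protein promoters (32%). The list was written as genes induced by hypoxia, so a high share can come from that choice. Why these genes fell was not tested. CACGTG, the E-box that MYC and its partner MAX can bind, contains the same letters and was in 4 of the 21 (19%) and 8.52% of promoters of tested genes. None of the 4 shown holds it.

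Glycolysis fell in part. Of 25 glycolysis and lactate genes, 10 were lower and 1 was higher, with a median of -0.36 (9 and 1 with the length trend removed). The counts fell to 6 lower without either day 14 library or the second day 16 library, and to 7 without the first day 16 library. Of these genes 5 are also on the hypoxia list, and of the other 20, 7 fell and 1 rose. HK2, the hexokinase of growing cells, fell from 114 and 113 to 48 and 40.1 CPM, 4 values with no overlap (log2 -1.36, SE 0.14, edgeR adjusted p = 3.76e-05). HK3, a hexokinase of myeloid cells, was the 1 that rose, from 1.62 and 0.98 to 4.47 and 3.01 CPM (log2 1.53, edgeR adjusted p = 0.0058), a call lost without the second day 14 (1.20) or first day 16 library (1.21). GAPDH, the most abundant member, was at 1746 and 1526 CPM and 1557 and 1477 CPM (log2 -0.11, edgeR adjusted p = 0.72), with overlapping libraries.

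Some genes of earlier stages fell. Of 33 stem and progenitor genes tested, 8 were lower (24.2%, against 8.13% of all genes, and 4 with the length trend removed) with a median of -0.10. Of 22 endothelial genes 7 were lower (31.8%, and 6 with the trend removed) with a median of -0.39. CD34 belongs to both lists. Left out in turn, the first and second day 14 and the first and second day 16 libraries gave 4, 4, 5 and 3 lower stem and progenitor genes and 5, 4, 4 and 4 lower endothelial genes. KDR, the VEGF receptor 2 of the endothelium and of haemogenic precursors, fell from 87.5 and 109 to 28.4 and 35 CPM (log2 -1.63, SE 0.28, edgeR adjusted p = 0.0011). ENG, endoglin, fell from 32.8 and 32.6 to 19.3 and 19.9 CPM (log2 -0.74, edgeR adjusted p = 0.0039). ANGPT1, a ligand of the TEK receptor, fell from 58 and 62.8 to 24.1 and 25.2 CPM (log2 -1.30, edgeR adjusted p = 0.000266). LIN28B, an RNA-binding protein of fetal-type progenitors, fell from 77 and 84.2 to 37.3 and 41.3 CPM (log2 -1.04, edgeR adjusted p = 0.000301). In these 4 genes day 16 lay under day 14 in every library, and their calls were kept under each left-out library and with the length trend removed. CD34, the progenitor antigen, fell from 40.4 and 36.2 to 16.6 and 12.3 CPM (log2 -1.40, edgeR adjusted p = 0.0035), and lost its call without the second day 16 library (log2 -1.21). TEK, the angiopoietin receptor, fell from 10.8 and 13.8 to 3.65 and 5.21 CPM (log2 -1.48, edgeR adjusted p = 0.0077), and lost it without the second day 14 (-1.30) or first day 16 library (-1.25). The endothelial markers CDH5 and CLDN5 were at 1.13 to 1.56 and 0.107 to 0.164 CPM over the 4 libraries.

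Receptor genes had more lower than higher calls. Of 27 growth factor and cytokine receptors tested, 8 fell (29.6%, against 8.13% of all genes) and IL5RA rose. The median was -0.41, and 6 were lower and 2 higher with the length trend removed. Without the libraries in the same order 5, 3, 6 and 2 were lower. TGFBR2, a TGF-beta receptor, fell from 46.5 and 48.6 to 22 and 18.1 CPM (log2 -1.24, SE 0.17, edgeR adjusted p = 0.000269). IL6ST, the shared chain gp130 of interleukin 6 receptors, fell from 135 and 168 to 70.9 and 71 CPM (log2 -1.10, edgeR adjusted p = 0.00042). Neither overlapped between days. In the monocyte and macrophage list 3 of 34 rose (8.82%) and 5 fell (14.7%), against 5.53% and 8.13% of all genes. Without 1 library 3, 1, 0 and 2 were higher and 3, 2, 4 and 2 lower, and with the trend removed 1 and 4. On this list CX3CR1, the fractalkine receptor, was among the 12 genes with the largest drop of the step. It went from 7.86 and 12.1 to 1.19 and 1.24 CPM (log2 -3.04, SE 0.40, edgeR adjusted p = 0.000209). MRC1, the mannose receptor of macrophages, fell from 62.8 and 81.9 to 27.6 and 28.9 CPM (log2 -1.36, edgeR adjusted p = 0.0016). ICAM1, an adhesion molecule, fell from 16.8 and 18.6 to 8.02 and 7.41 CPM in DOX and went from 14.6 and 11.8 to 18.2 and 19.4 CPM in UT. The ICAM1 steps differed by -1.71 (SE 0.23, edgeR adjusted p = 0.00046), with every DOX library falling and every UT library of day 16 above the higher UT library of day 14. Chemokine and cytokine genes that rose include CCL5, from 7.43 and 6.57 to 18.7 and 23.4 CPM (log2 1.59, SE 0.23, edgeR adjusted p = 0.000329). OSM, oncostatin M, was at 0.868 and 0.497 CPM and then 3.55 and 2.41 CPM (log2 2.12, edgeR adjusted p = 0.0027), a call lost without the second day 14 library (1.77).

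Lipid synthesis, DNA replication and G1 genes included larger shares of lower calls (34.5%, 27.5% and 31.8%) than all genes (8.13%). With the length trend removed these counts shrank, as did the lower calls over all genes (from 1636 to 666 of 20115). The list medians then went from -0.19 to -0.0083 for lipid synthesis, from -0.27 to -0.13 for DNA replication and from -0.32 to -0.28 for G1 genes. Of 29 cholesterol and fatty acid synthesis genes tested, 10 fell and 2 rose (6 and 1 with the trend removed, and 6, 3, 3 and 5 lower without the libraries in the order above). FADS2, the delta-6 desaturase, fell from 369.7 and 422 to 142 and 144 CPM (log2 -1.47, SE 0.15, edgeR adjusted p = 4.13e-05). EBP, a sterol isomerase, went the other way, from 86.5 and 76.6 to 129 and 151 CPM (log2 0.78, edgeR adjusted p = 0.000711). Both kept their calls with the trend removed. Of 40 DNA replication genes 11 fell and 1 rose (7 and 0 with the trend removed, and 6, 2, 4 and 2 lower without 1 library). MCM6, a helicase subunit, fell from 115 and 119 to 64.7 and 62.7 CPM (log2 -0.88, edgeR adjusted p = 0.000325). Of 22 G1 cyclins, kinases and E2F genes 7 fell and 1 rose (3 and 1 with the trend removed, and 4, 1, 3 and 1 lower without 1 library). RB1, the retinoblastoma protein, fell from 64.1 and 72.4 to 32.5 and 30.2 CPM (log2 -1.12, edgeR adjusted p = 0.0027). Of 37 mitosis genes 4 fell (10.8%) and 2 rose (5.41%), near the shares of all genes (1 and 0 with the trend removed, and 4, 1, 1 and 2 lower without 1 library). BUB1, a spindle checkpoint kinase, fell from 124 and 142 to 72.7 and 78.9 CPM (log2 -0.81, edgeR adjusted p = 0.00068). CDKN2A, the p16 and ARF locus, was at 2.77 and 2.27 CPM and then 5.37 and 7.2 CPM (log2 1.32, edgeR adjusted p = 0.0054), a rise whose call was lost without either second library (1.18 and 1.08). Of 16 BCL2 family genes tested, 2 rose and 2 fell (12.5% each, against 5.53% and 8.13% of all genes, and 1 and 2 with the trend removed). BCL2A1, which protects myeloid cells from death, rose from 1.28 and 1.11 to 3.69 and 3.48 CPM (log2 1.58, edgeR adjusted p = 0.0016). BCL2L11, the death-promoting protein BIM, fell from 54 and 61.1 to 33.3 and 33.1 CPM (log2 -0.79, edgeR adjusted p = 0.00038). The other calls were BAD, which rose (log2 0.75), and BAK1, which fell (log2 -0.57).

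Ribosomal protein and mitochondrial transcripts rose, and both lists have short transcripts. Over all genes 5.53% were higher and 8.13% lower. Of 33 cytosolic ribosomal proteins 17 were higher (51.5%) and 1 lower (median 0.41), against 8 and 1 with the length trend removed (median 0.23). Scaled by library size alone, 5 were higher and 1 lower (median 0.24). With TMM scaling the number higher was 2 without the second day 14 library and 3 without the second day 16 library. It was 11 without the first day 14 library and 12 without the first day 16 library. Their reads can be shared with pseudogene copies. RPL35 rose from 436 and 378 to 675 and 699.8 CPM (log2 0.76, edgeR adjusted p = 0.000604) and RPL8 from 903 and 813 to 1321 and 1397 CPM (log2 0.66, edgeR adjusted p = 0.0011). Of 13 mitochondrially encoded mRNAs 11 rose (84.6%) and none fell (median 0.98), 3 with the trend removed, and DESeq2 and limma-voom each called 12 higher. How many were called depended on single libraries. The list median was 0.72 without the first and 1.36 without the second day 14 library. It was 0.95 without the first and 1.05 without the second day 16 library. MT-CO1, a subunit of cytochrome oxidase, was at 9289 and 12499 CPM on day 14 and 22649.9 and 20361 CPM on day 16 (log2 0.98, edgeR adjusted p = 0.015), a call lost with the trend removed (log2 0.76) and without any of the first day 14 (0.78), first day 16 (0.89) or second day 16 library (1.05). MT-ND3, a subunit of complex I, rose from 795 and 1032 to 1895 and 2329.5 CPM (log2 1.21, edgeR adjusted p = 0.000526), and its call was kept under each of these. MT-RNR1, the mitochondrial 12S ribosomal RNA, was at 1711 and 1451 CPM and then 6209 and 3418 CPM (log2 1.61, edgeR adjusted p = 0.000809). Among 24 genes of the ATF4 response to amino acid shortage 5 rose (20.8%) and 1 fell (4.17%), against 5.53% and 8.13% of all genes. With the trend removed 5 rose and 0 fell, and 3 were higher without any 1 library. ATF4 itself rose from 362 and 318 to 591 and 655 CPM (log2 0.87, edgeR adjusted p = 0.000253), and DDIT3, the stress factor CHOP, from 4.97 and 3.79 to 9.0 and 10.2 CPM (log2 1.13, edgeR adjusted p = 0.00038).

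**Figure D3:**
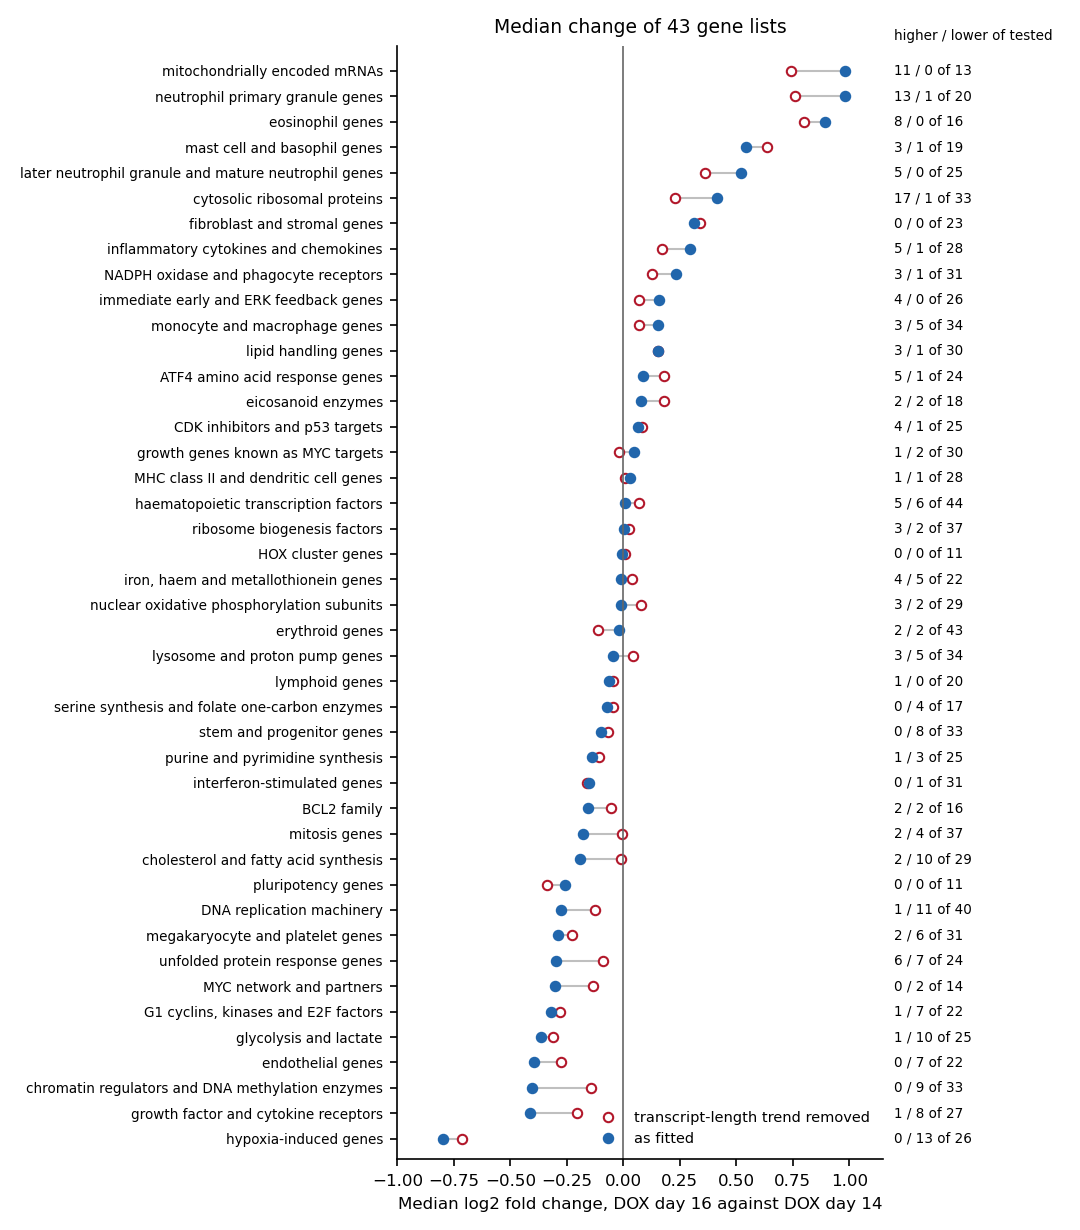
Median log2 fold change of DOX day 16 against DOX day 14 (x axis) for 43 gene lists (y axis), as fitted (filled) and with each library's transcript-length trend removed (open), beside the members called higher and lower. Hypoxia-induced genes are lowest (-0.80 and -0.71), and the mitochondrially encoded mRNAs, neutrophil primary granule genes (0.98 and 0.76) and eosinophil genes (0.89 and 0.80) are highest.

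The step differed between the arms in 1738 genes (8.64%), 896 with a higher log2 fold change in DOX (4.45%) and 842 with a lower one (4.19%). Many erythroid, megakaryocyte and respiratory chain genes fell in UT between the same days, where 13.9% of all genes rose and 15.6% fell. Of 43 erythroid genes, 2 rose and 2 fell in DOX (4.65% each, against 5.53% and 8.13% of all genes, median -0.02). In UT 3 rose and 21 fell (median -0.80), and the step was higher in DOX for 14 and lower for 1. Of 31 megakaryocyte and platelet genes, 2 rose and 6 fell in DOX (19.4% lower, against 8.13% of all genes), 26 fell in UT (median -1.53), and 18 differed, all higher in DOX. Of 29 nuclear oxidative phosphorylation subunits, 3 rose (10.3%) and 2 fell (6.90%) in DOX, 21 fell in UT (median -0.81), and 15 differed, all higher in DOX. In DOX, erythroid genes had 0, 0, 2 and 0 higher and 2, 1, 1 and 2 lower without 1 library in the order above, megakaryocyte genes 0, 0, 2 and 0 higher and 5, 0, 1 and 1 lower, and respiratory chain genes 2, 0, 2 and 0 higher and 1, 1, 0 and 1 lower. With the length trend removed the DOX counts were 1 higher and 3 lower, 2 and 2, and 2 and 2. Without the second UT day 16 library 16, 24 and 15 fell in UT, the numbers higher in DOX were 9, 10 and 6, and with the length trend removed these were 10, 18 and 14. Of erythroid genes 9, 8 and 6 were higher in DOX without the first DOX day 14, second DOX day 14 and second DOX day 16 library. Of megakaryocyte genes 11 and 10 were higher without the first DOX day 14 and second DOX day 16 library. Of respiratory chain genes 5, 7 and 9 were higher without the second DOX day 14, second DOX day 16 and second UT day 14 library.

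PF4, platelet factor 4, was at 417 and 357 CPM on DOX day 14 and 451 and 550.4 CPM on DOX day 16, and at 649 and 716 CPM and then 124 and 92.5 CPM in UT. The DOX step was not called (log2 0.37, edgeR adjusted p = 0.3), the UT step was (log2 -2.66, edgeR adjusted p = 5.42e-07), and they differed by 3.03 (SE 0.31, edgeR adjusted p = 5.28e-05). HBG2, a fetal globin whose reads can be shared with HBG1, was at 598 and 624 CPM and 559.8 and 749 CPM in DOX and at 590.5 and 720.3 CPM and 154 and 138 CPM in UT. Its steps differed by 2.26 (SE 0.39, edgeR adjusted p = 0.0019). RHAG, a red cell membrane protein of the Rh complex, fell in both arms (the DOX call was lost without the second day 14 or first day 16 library, log2 -0.76 and -0.60 against -0.81), from 103 and 111 to 51.4 and 70.7 CPM in DOX and from 33.7 and 33.2 to 6.65 and 5.39 CPM in UT, and the difference was 1.67 (SE 0.25, edgeR adjusted p = 0.000726). In PF4 and HBG2 both UT day 16 libraries lay under the other 6 libraries of days 14 and 16. The HBG2 step in DOX is close to 0 and changes sign with the scaling, the length trend and the libraries used. The 13 mitochondrially encoded mRNAs went the opposite way: all 13 rose in UT (median 3.12), and the step was lower in DOX for all 13 (12 or 13 without any 1 library). MT-CO1 went from 24536 and 11836 to 163025 and 145169 CPM in UT, a difference between the steps of -2.10 (SE 0.36, edgeR adjusted p = 0.0016). Mitochondrial reads took 55.9% and 53.5% of the UT day 16 counts. With scaling by library size alone the median of all genes was -1.15 in UT, -0.165 in DOX and 0.981 in the difference, against -0.03, 0.00 and 0.03, and the directions above are relative to TMM scaling.

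**Figure D4:**
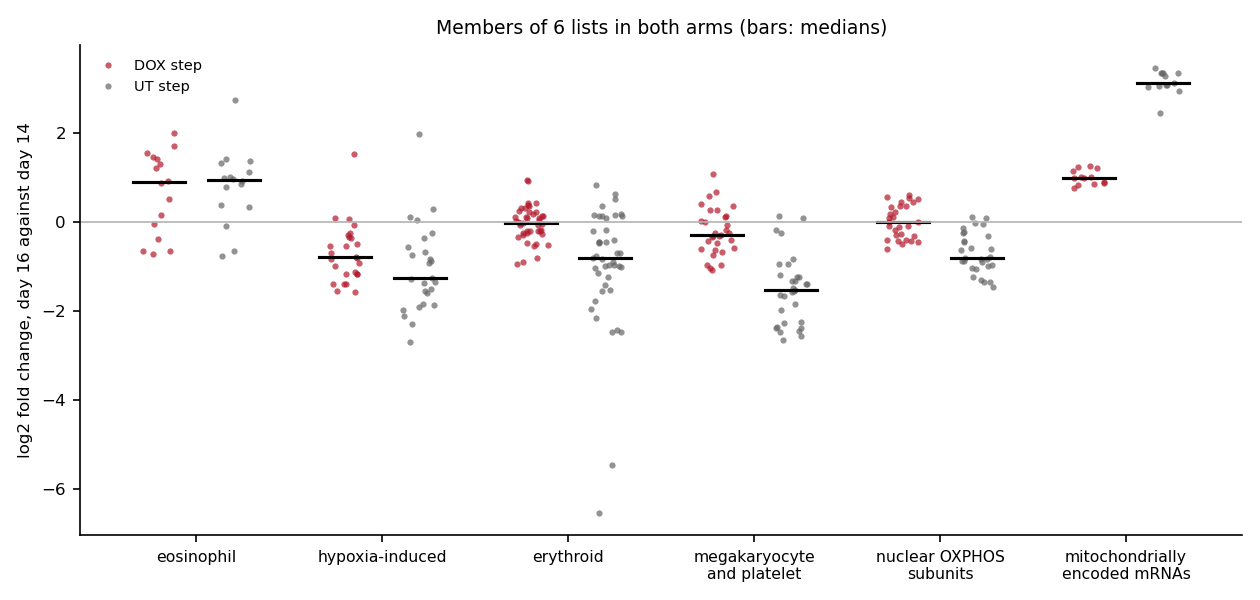
Log2 fold change of day 16 against day 14 (y axis) for each member of 6 gene lists (x axis) in DOX (red) and UT (grey), with bars at the list medians. The medians of eosinophil and hypoxia-induced genes have the same sign in both arms under TMM scaling (the UT eosinophil median is -0.17 by library size alone), while the UT medians of erythroid (-0.80), megakaryocyte (-1.53) and respiratory chain genes (-0.81) lie below the DOX medians (-0.02, -0.29 and -0.01).

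Some of the largest changes were in genes not named above. Of these, FABP4 is on the lipid handling list and IER3 on the immediate early list. Among the 12 highest were FABP4, a fatty acid carrier of macrophages and fat cells, at 2.93 and 2.07 CPM and then 8.84 and 8.82 CPM (log2 1.82, edgeR adjusted p = 0.0013), PPP1R1B, a phosphatase inhibitor known from neurons, at 3.46 and 2.47 CPM and then 11.1 and 11.2 CPM (log2 1.91, edgeR adjusted p = 1.29e-05), and IER3, an immediate early gene, at 3.86 and 3.14 CPM and then 11.8 and 9.44 CPM (log2 1.60, edgeR adjusted p = 0.0012). Among the 12 lowest were ZC3HAV1L, at 5.65 and 6.01 CPM and then 1.05 and 0.812 CPM (log2 -2.65, edgeR adjusted p = 0.000161), and COL2A1, a cartilage collagen, at 22.6 and 30.5 CPM and then 5.47 and 5.19 CPM (log2 -2.31, edgeR adjusted p = 0.000292). PTPRG, a receptor phosphatase, fell from 6.7 and 8.21 to 2.32 and 1.9 CPM and ZNF436, a zinc finger protein, from 7.93 and 9.61 to 2.54 and 2.56 CPM, with log2 fold changes of -1.82 and -1.78. None of these 7 lost its call in the alternatives run. Other list members changed as well. GLB1, lysosomal beta-galactosidase, fell from 39.4 and 45.4 to 16 and 15.3 CPM (log2 -1.44, edgeR adjusted p = 0.000151). JUND, an AP-1 factor, rose from 55.6 and 53.2 to 104 and 116 CPM (log2 1.01, edgeR adjusted p = 0.000178). IREB2, an iron-sensing RNA-binding protein, fell from 93.1 and 98.8 to 59.1 and 60.4 CPM (log2 -0.68, edgeR adjusted p = 0.0018). Reads of EIF3CL and UTP14C can be shared with the near-identical EIF3C and UTP14A. EIF3CL was at 2.37 and 0 CPM and then 19.7 and 23.2 CPM (not called by DESeq2), and UTP14C at 9.98 and 16.2 CPM and then 2.01 and 0 CPM. Of the remaining named genes that fell, MFAP3 went from 6.51 and 8.42 to 2.42 and 1.62 CPM, SRCAP from 36 and 58.1 to 20.3 and 6.47 CPM, ENPP2 from 5.45 and 5.33 to 1.85 and 1.3 CPM, P3H2 from 5.17 and 6.9 to 1.39 and 2.22 CPM and CRACD from 5.86 and 8.8 to 2.5 and 2.07 CPM. Each of these 5 and UTP14C lost its call without the second day 14 library and without at least 1 of the day 16 libraries.

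Among the other lists, the shares below stand against 5.53% higher and 8.13% lower over all genes. Of 33 chromatin regulators and DNA methylation enzymes 9 fell (27.3%) and none rose, 30 were below 0 and the median was -0.40. These genes have long transcripts. The number that fell was 7, 1, 1 and 2 without 1 library in the order above, and with the length trend removed 1 rose and 2 fell. Of 17 serine and folate enzymes tested, 4 fell (23.5%) and none rose (2, 0, 1 and 2 fell without 1 library, and 1 with the trend removed). Of 24 unfolded protein response genes 6 rose and 7 fell (6, 1, 4 and 3 higher and 3, 1, 1 and 3 lower without 1 library, and 4 and 3 with the trend removed). Of 44 haematopoietic transcription factors 5 rose (11.4%) and 6 fell (13.6%) (4, 0, 1 and 3 higher and 2, 1, 3 and 0 lower, and 3 and 1 with the trend removed). Of 28 inflammatory cytokines and chemokines 5 rose (17.9%) and 1 fell (3.57%) (3, 0, 3 and 3 higher, and 2 and 1 with the trend removed). Of 26 immediate early genes 4 rose (15.4%) (3, 2, 2 and 4, and 4 with the trend removed). Of 25 CDK inhibitors and p53 targets 4 rose and 1 fell (1, 0, 2 and 1 higher and 0 lower without any 1 library, and 2 and 0 with the trend removed). Of 34 lysosome genes 3 rose (8.82%) and 5 fell (14.7%) (2, 0, 1 and 2 higher and 3, 1, 3 and 1 lower, and 1 and 3 with the trend removed). Of 11 HOX genes tested edgeR, DESeq2 and limma-voom called 0, and 0 had an unadjusted p under 0.05. Of 11 pluripotency genes edgeR called 0, DESeq2 and limma-voom called 1 lower, and 1 was lower at an unadjusted p under 0.05. Of 23 fibroblast and stromal genes edgeR called 0, DESeq2 called 1 higher and 1 lower, limma-voom 1 and 2, and 2 and 2 passed an unadjusted p under 0.05.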

How the data were processed

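PolyA RNA-seq was analysed from 22 libraries, 2 for each of 11 groups of arm and day. The deposited values are estimated counts per gene from Salmon, made by the authors from reads trimmed with Trim Galore 0.6.5 and aligned with STAR to hg38, per the submitters' processing notes. The versions of STAR and Salmon, the annotation, the strand setting and the day doxycycline was added are not given in the sources used here. Of the values, 88.3% were whole, and the estimated counts were rounded before testing.

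Groups were taken from the labels. Genes passing filterByExpr (minimum count 10, 20115 of 60240) were fitted with edgeR 4.0.16 (quasi-likelihood, TMM scaling, 1 coefficient per group over all 22 libraries, Benjamini-Hochberg adjusted p under 0.05 as the call) in R 4.3.3. The steps in DOX and UT and their difference were contrasts of that fit, and the neighbouring DOX steps are given as values. CPM values use TMM library sizes. Totals of 35259754 to 47518889 counts limit the precision for genes with few reads. Transcript lengths came from GENCODE-annotated GRCh38 and promoters from RefSeq (GRCh38.p14). The test was checked on simulated counts.

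Named genes were MYC, the 12 highest and 12 lowest called genes with at least 5 CPM and no overlap between the days, up to 4 called members of each list by size of change together with the member of highest CPM, and the 8 highest and 8 lowest differences between the arms. EPX, CLC and other cell type markers are named as such, and MIR210HG is named among the lowest. The members and the 43 gene lists were chosen with earlier results of these data known. Alternatives were DESeq2 1.42.0, limma-voom (limma 3.58.1), other scalings and filters, fewer groups, the replicate number as a block and leaving out each library. Fits with trends over transcript length or GC content removed were added after seeing the data.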

Additional observations from a re-analysis of the deposited data

Results flagged for a closer look

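The results in this section are genes whose day 14 to 16 step differed between DOX and UT by edgeR's test of the difference itself (adjusted p under 0.05). Values are log2, DOX step minus UT step, and both arms use 2 libraries a day.

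Among blood genes, the difference was 3.03 for PF4, 2.26 for HBG2 and 1.67 for RHAG, all of which fell in UT. It was 1.32 for SLC2A3, 1.5 for CLC and -1.71 for ICAM1. Mitochondrial transcripts rose more in UT, with -2.10 for MT-CO1 and -1.85 for MT-ND3, beside a mitochondrial share of counts that went to 55.9% and 53.5% on UT day 16. The part of that share in these results was not tested.

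FN1 (-5.45), COL5A2 (-4.42) and COL4A1 (-3.06) are matrix genes that rest on the second UT day 16 library. FN1 was at 1.51 and 231 CPM in the UT day 16 libraries and COL4A1 at 3.95 and 48.2 CPM. Without that library the differences were 0.82, -0.52 and -0.33. Their calls were kept in 11, 9 and 8 of 20 alternatives.

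Rows with near-identical copies elsewhere in the genome were EIF3CL (3.87), NPIPA5 (3.64), UTP14C (-5.91), ANKRD36C (-3.30) and NBPF19 (-2.75). The call of EIF3CL was lost in 8 of 20 alternatives, DESeq2 and 6 of the left-out libraries among them (values 2.86 to 12.5, highest adjusted p = 0.278 with DESeq2). That of UTP14C was kept in all 20, with values of -4.86 to -14.3. For DEFA1B (edgeR adjusted p = 0.01197) and TBC1D3D (edgeR adjusted p = 0.0004595) a group had 0 counts, so no fold is given. The call of DEFA1B was lost without the second UT day 16 library (edgeR adjusted p = 0.0576). The other genes were HRC (2.87), DNAAF3 (2.84), MIR9-1HG (2.67), MAN1A2 (-2.65) and REL (-2.65). REL, an NF-kappaB subunit, was at 9.55 and 13.1 CPM and then 5.02 and 5.27 CPM in DOX and 6.53 and 4.44 CPM and then 10.6 and 20.6 CPM in UT.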

How the results depend on the processing

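The counts of changed genes depend on the scaling, the tool and single libraries. With scaling by library size alone the DOX step had 410 higher and 2540 lower genes, UT 360 and 12094, and the difference 8448 and 135 (13.9% of DOX calls higher against 40.5%, 2.89% against 47.1% in UT and 98.4% against 51.6% for the difference). DESeq2 gave 1821 higher genes in DOX and 1549 and 1414 for the difference, limma-voom gave 2633 lower genes in DOX and 1410 higher for the difference, and a fit on only the groups compared gave 2326 and 2992 in DOX. With the length trend removed 666 genes were lower in DOX, and 56.1% of calls were higher. Leaving out 1 library gave 158 to 582 higher and 361 to 1107 lower genes in DOX, 1838 to 2100 and 2052 to 2478 in UT, and 342 to 828 and 336 to 810 for the difference. The cause was not tested.

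MYC passed the threshold in several settings, with log2 fold changes of -0.84 by library size alone, -0.71 with no filter, -0.66 with DESeq2, -0.71 with limma-voom and -0.65 on only the groups compared. Without 1 library it was -1.05 to -0.40. HBG2 in DOX turned to -0.072 by library size alone, -0.13 without the second day 16 library (at most 0.29 without another), -0.23 with the length trend removed and -0.24 with that and the block. FN1's difference turned to 0.82 without the second UT day 16 library and was -6.44 without the first.

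Whether same-numbered libraries are paired is not known. Their deviations from the group means correlated at 0.109 between DOX day 14 and day 16 (-0.016 to 0.195 over 55 pairs of groups). Such weak correlations do not decide it. With the replicate block 1414 genes were higher and 1990 lower in DOX, and MYC was at -0.72 (edgeR adjusted p = 0.00797). With the block and the length trend removed 1257 were higher and 943 lower, and MYC was at -0.81.

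In simulated counts for the DOX step (19709 genes), edgeR recovered 10.4% of 67 1.5-fold, 55.2% of 67 2-fold and 87.9% of 66 4-fold changes. Uncalled small changes are therefore not shown to be absent. The simulation had no length trend, and a smaller share of its genes changed than the 13.7% called here. Its recovery may therefore differ from that in the real step.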
